A study of Mus musculus with 63 samples.

Results

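Voltage-gated sodium and calcium channels are each built from a pore-forming protein and auxiliary subunits, and the transcripts of all of their genes were followed here across hippocampal regions, genotypes, a denervating lesion and a co-immunoprecipitation of synaptopodin. The 32 genes were taken by symbol from the 55291 symbols counted, as every protein-coding Scn, Cacna1, Cacna2d and Cacnb gene of the deposited annotation. They comprise 10 sodium channel alpha subunits, 4 sodium channel beta subunits, 10 calcium channel pores (Cacna1), 4 alpha2delta subunits (Cacna2d) and 4 calcium channel beta subunits (Cacnb).

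Sodium channel alpha subunits open on depolarization and carry the upstroke of the action potential, and the beta subunits, single-pass membrane proteins with an immunoglobulin fold, tune their gating and hold them to the membrane and to neighbouring cells. In the forebrain Scn1a, Scn2a, Scn3a and Scn8a encode the neuronal alpha subunits Nav1.1, Nav1.2, Nav1.3 and Nav1.6, whereas Scn4a is best known from skeletal muscle and Scn10a and Scn11a from sensory ganglia. Calcium channels couple depolarization to calcium entry. Cacna1a and Cacna1b encode the P/Q-type and N-type pores of presynaptic terminals, Cacna1c and Cacna1d the neuronal L-type pores, Cacna1e the R-type pore, and Cacna1g, Cacna1h and Cacna1i the low-voltage-activated T-type pores. The alpha2delta and beta subunits carry the high-voltage-activated pores to the membrane.

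The material was organotypic entorhino-hippocampal tissue cultures, slices prepared from mice at postnatal days 3 to 5 and kept for at least 18 days in vitro, either intact (control) or after entorhinal cortex lesion (ECL), which cuts the cortical input to the hippocampus. For the regional libraries the dentate gyrus (DG) or the CA3 region was isolated from 1 culture per library, from wildtype cultures (C57BL/6, Synpo+/+) or from cultures that the labels give as synaptopodin-deficient (SP-KO, written Synpo-/- here). There were 4 control and 7 ECL libraries of wildtype DG, 2 and 3 of wildtype CA3, 7 and 4 of Synpo-/- DG, and 6 and 6 of Synpo-/- CA3. In the Synpo-coIP experiment, an antibody against synaptopodin precipitated RNA-containing complexes from a lysate of 6 pooled cultures, and an aliquot of the lysate was sequenced as input. It held 5 control and 5 ECL lysates of wildtype cultures and 2 lysates labelled Synpo-/-, for which no lesion state is given.

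Total counts ran from 14055930 to 46043990 in the 39 regional libraries and from 11601154 to 53682143 in the 24 libraries of the coIP experiment. Levels are given in CPM, the read count divided by the TMM-scaled library size in megareads, and levels of different genes are compared only as CPM per kb of exon. Replicate 5 of wildtype DG ECL stood apart, with 15.5 CPM of Prox1, the transcription factor of dentate granule cells, against 120 to 217 CPM in the other 21 DG libraries and 12.7 to 44.0 CPM in the 17 CA3 libraries. Its 8 CA3 pyramidal cell markers summed to 1348 CPM, against 476 to 726 CPM in the other DG libraries. Counts of calls, list medians and uniform signs that rest on it are given with and without it, and group levels include it. Synpo itself was not lower under the Synpo-/- label, at 51.8 ± 9.31 CPM (SD, n = 7) in control DG against 22.5 ± 2.36 CPM (SD, n = 4) in wildtype, so the count of reads over this gene did not check the genotype and every genotype comparison below is between libraries by label.

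Among the sodium channel alpha subunits, Scn2a had the highest level per exon length in all 14 groups, at 32.5 ± 1.48 CPM per kb (SD, n = 4) in wildtype control DG and 32.0 ± 2.27 CPM per kb (SD, n = 2) in wildtype control CA3. Scn1a followed, at 17.1 ± 1.59 and 21.5 ± 1.49 CPM per kb in the same DG and CA3 groups. The order of the next pair differed by region, with Scn3a above Scn8a in the means of the 4 DG groups and Scn8a above Scn3a in those of the 4 CA3 groups. Scn4a, Scn10a and Scn11a were far lower and lay between 0.0426 and 0.318 CPM per kb in the 8 regional groups. Scn7a, which encodes a sodium-sensing channel-like protein, and Scn9a, the Nav1.7 gene, were between 0.341 and 1.05 CPM per kb. Scn3a, Scn2a, Scn1a, Scn9a and Scn7a lie in a run on chromosome 2, between positions 65457118 and 66784914 of GRCm38, and counts cover the exons of each gene, for Scn8a within chr15:100869858-101045938 and for Cacnb4 within chr2:52428320-52676831.

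The beta subunits reached levels per length close to those of the alpha subunits. Scn2b was at 20.1 ± 0.181 CPM per kb (SD, n = 2) in wildtype control CA3 and at 14.7 ± 1.62 CPM per kb (SD, n = 4) in wildtype control DG. In the wildtype control input, prepared from whole cultures, Scn2b stood at 71.0 ± 10.8 CPM per kb (SD, n = 5), above Scn3b at 25.5. Scn4b lay below Scn2b and Scn3b in every group.

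The calcium channel pores had lower levels per length than Scn2a or Scn1a. Cacna1e and Cacna1b were the leading pores in every group. In control DG libraries labelled Synpo-/- the R-type gene Cacna1e was at 6.68 ± 0.528 and the N-type gene Cacna1b at 4.60 ± 0.465 CPM per kb (SD, n = 7), whereas in the matching CA3 libraries both were alike within their spread, at 6.58 ± 0.553 and 6.63 ± 0.651 CPM per kb (SD, n = 6). Cacna1a, Cacna1c and Cacna1d followed between 1.80 and 3.32 CPM per kb in the 8 regional groups, and the retinal and skeletal muscle pores Cacna1f and Cacna1s did not exceed 0.212. Cacna2d1 was the main alpha2delta gene, at 25.7 ± 2.89 CPM per kb in control DG labelled Synpo-/- (SD, n = 7), and Cacnb4, at 22.0 ± 2.21 CPM per kb in the same libraries, was the highest calcium channel beta gene in every group but the wildtype ECL coIP, where Cacnb3 was above it. Reads were counted without strand, and exons of genes on the opposite strand cover 16% of Cacnb4 and 20.0% of Cacna1s, so these values may include reads of their neighbours.

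**Figure D1:**
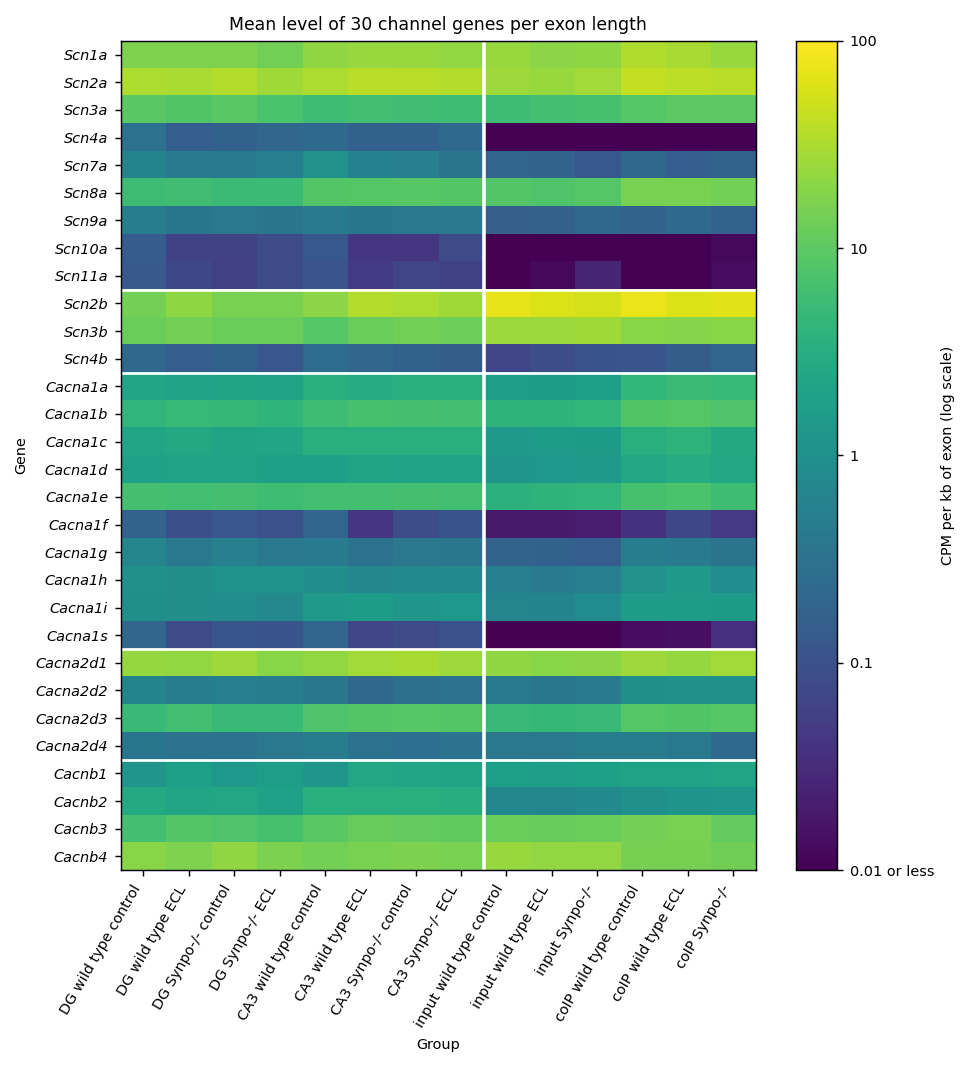
Mean level of 30 channel genes (rows, grouped by subunit family) in the 14 groups (columns), as colour on a log scale of CPM per kb of exon, with regional groups left of the white line and input and coIP groups right of it. Scn2a, Scn1a, the beta subunit genes Scn2b and Scn3b, Cacna2d1 and Cacnb4 are the brightest rows, and Scn4a, Scn10a, Scn11a and Cacna1s are among the darkest.

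The first comparison asked how the channel genes differed between the DG and CA3. Scn2b, Scn8a and Cacna2d3 were lower in the DG and Scn3a and Cacna2d2 higher, with the same sign in all 4 comparisons of wildtype and Synpo-/- control and ECL libraries, which share no library. Of 30 genes tested in all 4, 12 had a negative log2 fold change (lower in the DG) in each (among them Scn1a, Scn8a, Scn2b, Cacna1a, Cacna1b, Cacna1c, Cacna1i, Cacna2d3, Cacnb1, Cacnb2 and Cacnb3) and 6 a positive one in each (Scn3a, Cacna1g, Cacna1h, Cacna1s, Cacna2d2 and Cacnb4), where 22.9% and 25.6% of all genes tested in the 4 had such a uniform sign. Without replicate 5 of wildtype DG ECL these counts were 12 and 6 as well, against 23.4% and 25.2% of all genes. Passing the test in at least 1 of the 4 was seen for 18 of the 32, against 25.1% of all genes tested in any, and 11 of 30 passed in both comparisons of libraries labelled Synpo-/-, against 9.71% of all genes tested in both. In bulk tissue, fewer cells of a type and less RNA per cell cannot be told apart. Absence of overlap between groups is given below mostly for genes chosen by their small p, so it is not further support. The share of all genes without overlap was not computed.

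In wildtype control cultures 4 of 32 channel genes passed the test (adjusted p under 0.05), 1 higher and 3 lower in the DG, where 5.39% of all genes passed, 2.63% higher and 2.75% lower. Scn3a, the Nav1.3 gene that is prominent in developing brain, had 106, 117, 138 and 120 CPM in the DG against 73.9 and 65.8 CPM in CA3. The log2 fold change was 0.80 (SE 0.149, adjusted p = 0.00514), and every DG library was above both CA3 libraries.

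Scn8a, the Nav1.6 gene of the axon initial segment and nodes, had 84.1, 99.0, 75.8 and 84.1 CPM in the DG against 138 and 125 CPM in CA3 (log2 fold change -0.61, SE 0.14, adjusted p = 0.0195). Cacna2d3 had 53.5, 37.9, 42.5 and 46.1 CPM against 63.0 and 77.5 CPM (-0.63, SE 0.152, adjusted p = 0.0269). For both genes every DG library lay below both CA3 libraries. With 2 CA3 libraries these calls were fragile. Without DG replicate 3, 2 channel genes passed, where 918 of all genes did, against 1382 with all libraries. Scn8a missed the threshold without DG replicate 1, 3 or 4 (adjusted p from 0.0509 to 0.0818). Cacna2d3 missed it without DG replicate 3 (adjusted p = 0.0859). Fits without a CA3 replicate leave 1 CA3 library, so they give effect sizes only and do not show that a call holds. The log2 fold change of Scn8a was -0.53 without CA3 replicate 1 and -0.69 without CA3 replicate 2. In the latter fit that of Cacna2d3 was -0.48 and that of Scn3a 0.70.

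In control cultures labelled Synpo-/-, with 7 DG and 6 CA3 libraries, 16 of 30 channel genes tested passed, where 25.5% of all genes did. Of these 5 were higher in the DG (13.1% of all genes) and 11 lower (12.5% of all genes). Scn3a ranged from 116 CPM over a median of 121 to 135 CPM in the DG and from 67.6 over 76.8 to 84.5 CPM in CA3 (log2 fold change 0.77, SE 0.0723, adjusted p = 1.92e-07). Cacna2d2, an alpha2delta gene prominent in cerebellar Purkinje cells, ranged from 3.36 over 4.27 to 4.83 CPM in the DG and from 1.5 over 2.39 to 3.10 CPM in CA3 (0.92, SE 0.178, adjusted p = 0.000708). Neither gene overlapped between the regions.

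The other 3 genes that were higher in the DG overlapped between regions. Cacnb4 ranged from 167 over 207 to 213 CPM in the DG and from 132 over 137 to 176 CPM in CA3 (0.57, SE 0.0902, adjusted p = 0.000102). The T-type genes Cacna1h and Cacna1g rose by 0.61 (SE 0.164, adjusted p = 0.00945) and 0.63 (SE 0.185, adjusted p = 0.016) on the log2 scale. Cacna1h had a median of 10.3 CPM in the DG and 7.15 CPM in CA3, and Cacna1g 5.51 and 4.11 CPM.

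Among the genes lower in the DG, Cacna2d3 ranged from 38.8 over 44.0 to 56.5 CPM in the DG and from 71.4 over 77.6 to 93.2 CPM in CA3 (log2 fold change -0.70, SE 0.0822, adjusted p = 2.98e-06). Scn2b, the beta subunit that binds alpha subunits through a disulfide bond, ranged from 51.0 over 66.3 to 91.4 CPM and from 129 over 144 to 182 CPM (-0.93, SE 0.109, adjusted p = 3.2e-06). Scn8a ranged from 75.3 over 83.9 to 98.7 CPM and from 123 over 134 to 173 CPM (-0.63, SE 0.0831, adjusted p = 1.37e-05). These 3 genes did not overlap between regions.

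Scn1a, the Nav1.1 gene, was at 172 over 194 to 205 CPM in the DG and at 240 over 264 to 295 CPM in CA3, without overlap (-0.37, SE 0.0645, adjusted p = 0.000249). Also lower were Cacnb1 (-0.65), Cacna1c (-0.49), Cacna1a (-0.44), Cacna1b (-0.42), Cacnb3 (-0.35) and Cacnb2 (-0.31). The T-type gene Cacna1i (-0.41, adjusted p = 0.119) and the pore genes Cacna1d (0.06) and Cacna1e (0.13) did not pass.

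After ECL, in libraries labelled Synpo-/-, 13 of 31 channel genes tested passed, where 13.6% of all genes did, with 1 higher in the DG (7.37% of all genes) and 12 lower (6.24% of all genes). Scn3a had 85.2, 87.5, 106 and 93.2 CPM in the 4 DG libraries and ranged from 69.2 over 71.0 to 82.0 CPM in the 6 CA3 libraries (log2 fold change 0.37, SE 0.0986, adjusted p = 0.0206). The groups did not overlap, and Scn3a missed the threshold without any 1 of DG replicates 3 and 4 and CA3 replicates 3 and 5 (0.30 to 0.37, adjusted p from 0.0515 to 0.111).

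Scn1a had 148, 161, 158 and 156 CPM in the DG against 215 over 255 to 269 CPM in CA3 (-0.65, SE 0.0956, adjusted p = 0.000302). Scn8a had 82.4, 85.7, 91.3 and 82.6 CPM against 121 over 138 to 151 CPM (-0.66, SE 0.0969, adjusted p = 0.000313). No library of the DG reached the lowest CA3 library for either of these sodium channel genes.

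Cacna1b had 35.0, 39.0, 45.6 and 43.3 CPM in the DG against 59.3 over 63.5 to 66.7 CPM in CA3 (-0.63, SE 0.102, adjusted p = 0.000674). Cacna2d3 had 38.3, 46.1, 45.3 and 51.7 CPM against 56.6 over 76.1 to 81.9 CPM (-0.68, SE 0.118, adjusted p = 0.00124). Neither overlapped. Also lower in the DG were Cacna1i (-0.81), Scn2b (-0.78), Cacna1a (-0.68), Cacnb2 (-0.62), Cacnb3 (-0.58), Cacna1c (-0.52) and Scn2a (-0.39).

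After ECL in wildtype cultures 1 of 31 channel genes passed, where 2.05% of all genes did. Cacna2d2 ranged from 2.13 over 4.16 to 5.92 CPM in the 7 DG libraries against 1.90, 1.55 and 1.89 CPM in CA3, without overlap (log2 fold change 1.23, SE 0.302, adjusted p = 0.0498). Without DG replicate 5, whose 2.13 CPM was the lowest DG value, 17 of 31 passed, 3 higher and 14 lower, where 19.8% of all genes passed, 7.51% higher and 12.3% lower. Leaving out any other library gave 0 channel calls, where between 0 and 6 of all genes passed, so these fits called almost no gene. DESeq2 on all libraries called 1 channel gene as higher and 2 as lower, and removal of the length trend 1 higher and 1 lower. The value of Scn8a in DG replicate 5 was 158 CPM, above the 3 CA3 libraries at 144, 136 and 143 CPM, while the other 6 DG libraries ran from 75.9 to 88.1 CPM. Without replicate 5 the log2 fold change of Scn8a was -0.73 (SE 0.0878, adjusted p = 1.44e-05), against -0.54 with it. Scn2b (-0.90), Cacna1i (-0.88), Cacna1a (-0.64), Scn1a (-0.62) and Cacna2d3 (-0.56) also passed as lower without it, and Scn3a (0.53), Cacna1h (0.52) and Cacna2d2 (1.32) as higher.

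**Figure D2:**
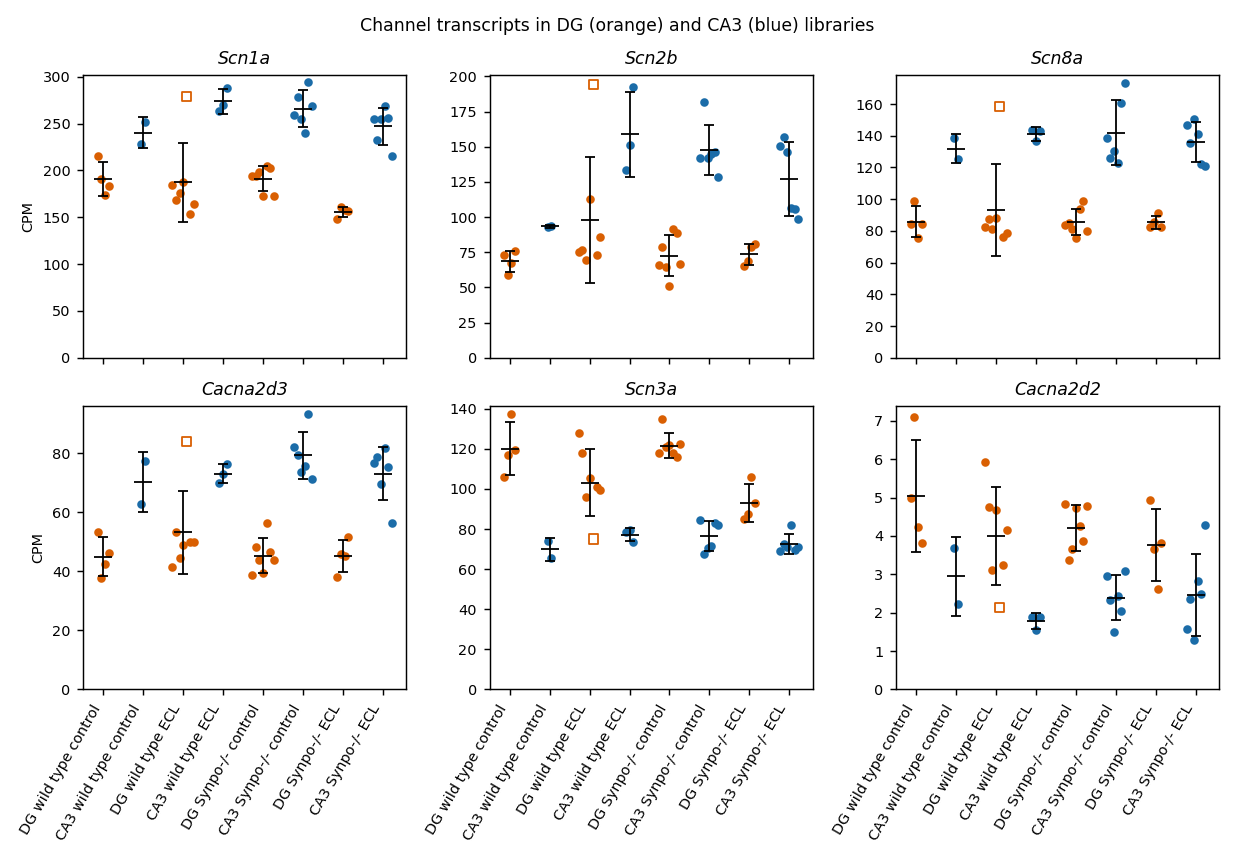
CPM of 6 channel genes in each regional library, with DG libraries in orange, CA3 libraries in blue, black lines for the mean and SD, an axis from 0 in each panel and an open square for replicate 5 of wildtype DG ECL. The means of Scn1a, Scn2b, Scn8a and Cacna2d3 lie lower in the DG than in CA3, those of Scn3a and Cacna2d2 lie higher, and for Scn8a the open square is at 158 CPM, above the CA3 values of wildtype ECL.

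Marker lists of several cell types differed between the regions too. The summed level of 5 pan-neuronal markers (Rbfox3, Snap25, Syt1, Tubb3 and Map2) was 3209 to 4967 CPM in control DG labelled Synpo-/- and 6436 to 8222 CPM in the matching CA3, 3186 to 4030 against 5643 to 6163 CPM in wildtype controls, and 2683 to 4041 against 4029 to 7545 CPM after ECL under the Synpo-/- label. Of these 5 markers 2 passed as lower in the DG in each of the 3 comparisons and 0 as higher. In the same order 12.5%, 2.75% and 6.24% of all genes were lower. Gene by gene, the median log2 fold change of the 5 markers was -0.29, -0.11 and -0.34, against 0.05, 0.02 and 0.03 over all genes. The 6 oligodendrocyte markers summed to 474 to 1385 CPM in control DG labelled Synpo-/- and 1649 to 2626 CPM in CA3, all 6 lower (12.5% of all genes). In wildtype controls they summed to 504 to 879 against 1215 to 1883 CPM, 3 of 6 lower (2.75% of all genes). After ECL under the Synpo-/- label they overlapped, at 647 to 1577 against 1108 to 1529 CPM. The summed level of 8 interneuron markers went the other way, with 975 to 1267 CPM in control DG labelled Synpo-/- and 627 to 895 CPM in CA3. After ECL under that label 5 of 7 astrocyte and 5 of 9 microglia markers were higher in the DG (7.37% of all genes), while in its controls 3 and 2 were lower (12.5%). In wildtype ECL without DG replicate 5, 3 of 5 neuronal and 5 of 6 oligodendrocyte markers were lower (12.3% of all genes). There 4 of 7 astrocyte and 1 of 9 microglia markers were higher (7.51%). With it these counts were 0, 0, 1 and 1. No marker of these lists was at 0 in a whole group, and their part in the channel differences was not tested. The median log2 fold change over the channel genes was -0.03 in wildtype control and -0.04 in control labelled Synpo-/-, against 0.02 and 0.05 over all genes tested, and after ECL -0.25 (wildtype) and -0.21 (Synpo-/-) against 0.06 and 0.03. Without DG replicate 5 the wildtype ECL median was -0.35, against 0.05 over all genes.

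**Figure D3:**
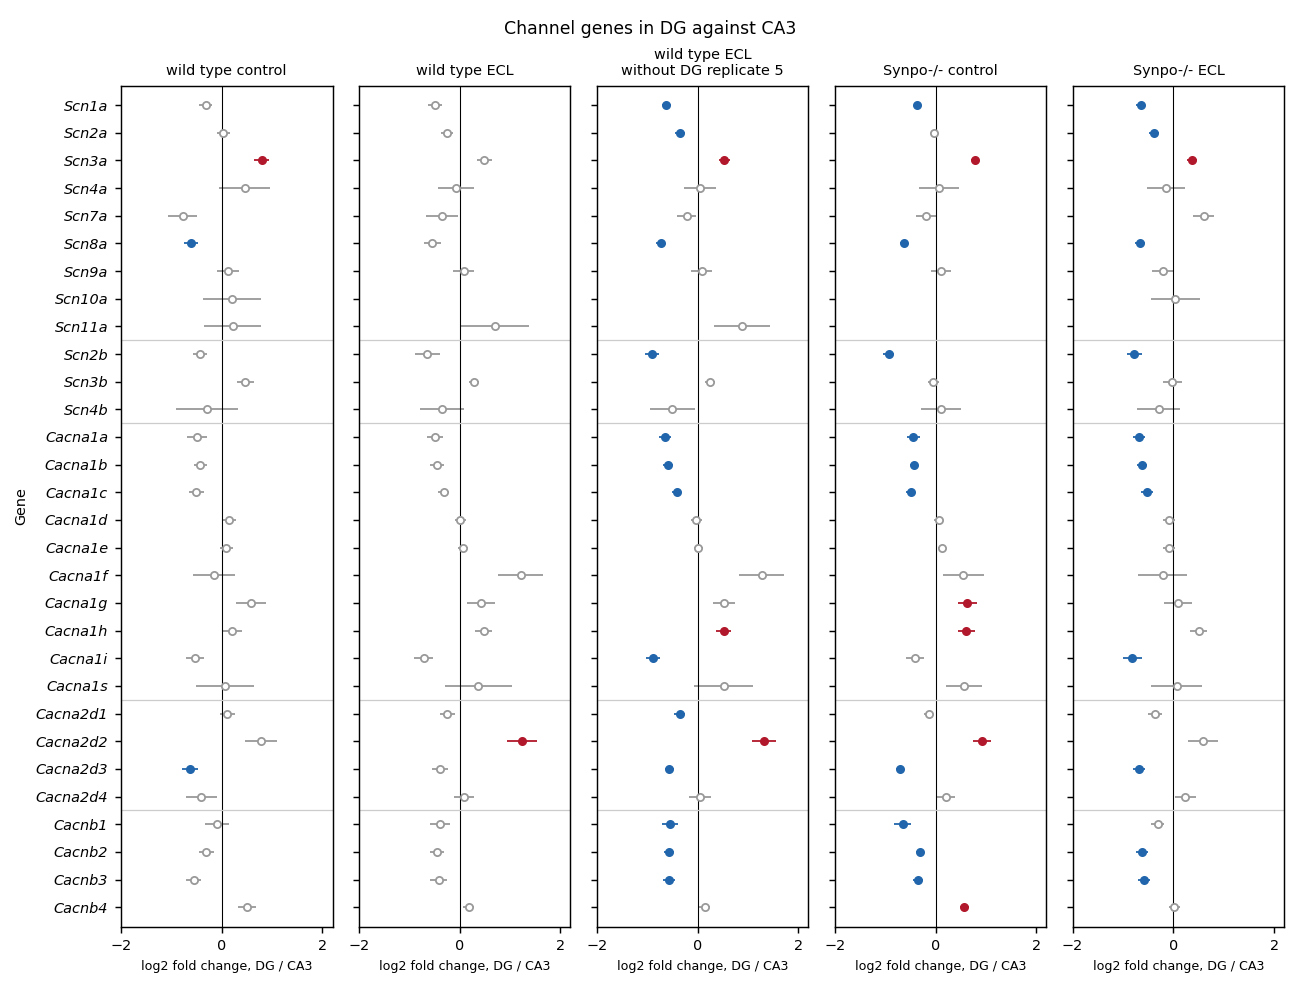
Log2 fold change (points) and SE (bars) of DG against CA3 for 30 channel genes where tested, in 5 panels, where filled points passed the test (red higher in the DG, blue lower) and open grey points did not. The points of Scn2b, Scn8a and Cacna2d3 lie left of 0 and those of Scn3a and Cacna2d2 right of 0 in every panel, and in the wildtype ECL panels filled points are many without DG replicate 5 and Cacna2d2 alone is filled with it.

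Promoter sequences are shown for 3 accessory subunit genes that passed in opposite directions between the regions, to let their base composition be read beside the values above. They run from 250 bases before to 50 bases after the RefSeq start in GRCm38.p6, with each GC box (GGGCGG, on either strand, so also CCGCCC, with overlapping copies counted) in capitals. Cacna2d3 (chr14:29721815-29722114, minus strand, 81.3% GC, 6 GC boxes) and Scn2b (chr9:45117626-45117925, plus strand, 38.3% GC, 0 GC boxes) were lower in the DG, and Cacna2d2 (chr9:107399630-107399929, plus strand, 75.7% GC, 1 GC box) was higher. The deposited annotation used for counting starts Cacna2d2 at 107399612, before this window, and Scn2b at 45117782, inside its window and before the RefSeq start.
Cacna2d3: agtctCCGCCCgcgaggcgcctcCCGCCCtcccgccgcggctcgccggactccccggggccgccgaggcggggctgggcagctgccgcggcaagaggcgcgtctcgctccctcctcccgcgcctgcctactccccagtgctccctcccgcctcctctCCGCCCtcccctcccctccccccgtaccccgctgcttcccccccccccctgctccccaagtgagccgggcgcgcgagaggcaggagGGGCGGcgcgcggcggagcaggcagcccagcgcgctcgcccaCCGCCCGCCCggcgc
Scn2b: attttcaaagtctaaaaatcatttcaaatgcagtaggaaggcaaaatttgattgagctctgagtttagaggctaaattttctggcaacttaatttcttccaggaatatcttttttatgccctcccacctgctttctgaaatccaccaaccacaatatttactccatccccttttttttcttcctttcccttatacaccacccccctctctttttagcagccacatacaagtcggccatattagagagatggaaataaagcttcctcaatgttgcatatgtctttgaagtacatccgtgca
Cacna2d2: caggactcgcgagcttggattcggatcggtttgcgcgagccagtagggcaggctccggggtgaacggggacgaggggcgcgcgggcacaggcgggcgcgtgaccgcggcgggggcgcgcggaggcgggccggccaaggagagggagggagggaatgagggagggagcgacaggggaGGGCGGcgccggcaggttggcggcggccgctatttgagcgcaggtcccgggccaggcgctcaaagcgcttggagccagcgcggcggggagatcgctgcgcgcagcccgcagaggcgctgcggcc

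RefSeq promoters were matched for 24 of the 32 channel genes, as 34 start sites. A GC box was found in 14 of the 34 (41.2%), against 35.7% of all 32851 promoters of this length. The E-box CAGCTG was found in 10 of the 34, against 16.3% of all promoters, the TATA box TATAAA in 2 of the 34 against 13.6%, and the cAMP response element TGACGTCA in 0 of the 34 against 1.79%, each searched on both strands. The letters TTCAGCACC and GGACAG, the left and right parts of the RE1 element, were found in 0 and 3 of the 34, against 0.371% and 22.2% of all promoters. These matches describe letters in the window and not factor binding.

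The next comparison asked which channel genes moved after ECL within a region and genotype. In the DG labelled Synpo-/-, 6 of 32 channel genes fell and 0 rose, where 8.53% of all genes passed, 5.17% higher and 3.36% lower. These were the pore genes Scn3a, Scn2a and Scn1a and the auxiliary genes Cacnb4, Cacnb2 and Cacna2d1. The control libraries are the same DG libraries as in the regional comparison above, so the higher DG values of Scn3a and Cacnb4 there and their fall here share samples.

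Cacnb4, an auxiliary subunit gene of high-voltage-activated channels, had 132, 147, 144 and 150 CPM after ECL against 167 over 207 to 213 CPM in 7 controls (log2 fold change -0.50, SE 0.102, adjusted p = 0.00551). Scn3a had 85.2, 87.5, 106 and 93.2 CPM against 116 over 121 to 135 CPM (-0.43, SE 0.0884, adjusted p = 0.00592). Scn2a had 292, 348, 360 and 375 CPM against 398 over 439 to 492 CPM (-0.40, SE 0.097, adjusted p = 0.0173). For these 3 genes every lesioned library lay below every control.

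Scn1a had 148, 161, 158 and 156 CPM after ECL against 172 over 194 to 205 CPM in controls, also without overlap (-0.34, SE 0.0834, adjusted p = 0.0181). Cacnb2 had 24.0, 30.2, 26.7 and 23.6 CPM against 29.9 over 33.5 to 37.0 CPM and overlapped in 1 lesioned library (-0.40, SE 0.1, adjusted p = 0.0195). Cacna2d1, the target of gabapentinoid drugs, fell by 0.43 on the log2 scale (adjusted p = 0.0373). Without ECL replicate 1 or without ECL replicate 3, 2 of the genes passed, where 1118 and 1178 of all genes did, against 1989 with all libraries. Scn1a, Scn2a and Cacnb2 were among those lost (adjusted p from 0.0551 to 0.0814). Scn1a and Cacnb2 also missed the threshold without ECL replicate 4 (adjusted p = 0.0622 and 0.0948).

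Glial markers moved with the lesion in the same libraries. The summed level of 7 astrocyte markers was 6405 to 8397 CPM after ECL and 4257 to 5020 CPM in controls labelled Synpo-/-, and that of 9 microglia markers 1117 to 1562 against 515 to 1135 CPM. The pan-neuronal markers overlapped, at 2683 to 4041 CPM after ECL and 3209 to 4967 CPM in controls. Their part in the fall of the channel transcripts was not tested.

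In wildtype DG 0 of 32 channel genes passed in edgeR, where 12.2% of all genes did. An unadjusted p under 0.05 was seen for 7 of the 32 and for 7823 of all 23720 genes tested. In DESeq2 3 passed (Cacna1g, Scn10a and Scn4a, all lower), and its median log2 fold change over all genes was -0.14, against -0.003 in edgeR. The smallest p was that of Cacna1g, with 2.10 over 4.13 to 5.67 CPM in 7 lesioned libraries against 6.00, 10.3, 5.33 and 5.08 CPM in controls (log2 fold change -0.74, SE 0.248, adjusted p = 0.0593), and the groups overlapped. Without ECL replicate 5, Cacnb2 alone passed (-0.39, SE 0.104, adjusted p = 0.0236), where 13.8% of all genes passed. Leaving out 1 library gave between 0 and 3 calls, with 3 without ECL replicate 7, 2 without ECL replicate 1 and 1 without ECL replicate 2 or control replicate 1. Of all genes, 3338, 2742, 2899 and 2239 passed in these fits in the same order, against 2886 with all libraries. The genes that fell in the DG labelled Synpo-/- had values here of -0.24 (Cacnb4), -0.24 (Scn3a), -0.09 (Scn2a), -0.06 (Scn1a), -0.27 (Cacnb2) and -0.11 (Cacna2d1) on the log2 scale, none past the threshold. Without ECL replicate 5 they were -0.27 (Cacnb4), -0.19 (Scn3a), -0.18 (Scn2a), -0.19 (Scn1a), -0.39 (Cacnb2) and -0.22 (Cacna2d1), of which Cacnb2 passed. Microglia markers were at 1101 to 1426 CPM after ECL and 431 to 593 CPM in controls.

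In wildtype CA3 1 of 31 channel genes passed, where 1.78% of all genes did. Cacna1f, the retinal L-type pore gene, had 0.422, 0.437 and 0.322 CPM after ECL against 2.17 and 1.5 CPM in controls, without overlap (log2 fold change -2.31, SE 0.497, adjusted p = 0.0497). These levels are among the lowest of the 32 genes, and the call was lost without any 1 of the 5 libraries (adjusted p from 0.0551 to 0.257). DESeq2 called 2 channel genes as higher and 1 as lower here, and its median log2 fold change over all genes was 0.10, against -0.01 in edgeR. In CA3 labelled Synpo-/- 0 of 30 passed in edgeR or DESeq2, where 0.077% of all genes did. There 2 had an unadjusted p under 0.05, as had 1510 of all 20772 genes tested. Scn7a had the smallest p there, with 1.97 over 2.56 to 3.44 CPM after ECL against 2.80 over 4.16 to 5.14 CPM in controls (-0.64, adjusted p = 0.462).

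In the wildtype input of whole cultures 0 of 25 channel genes passed in edgeR or DESeq2, where 5.61% of all genes did. There 4 had an unadjusted p under 0.05, all lower, as had 3493 of all 17951 genes tested in either direction. Across the 4 regional lesion comparisons, which share no library, 3 of 30 channel genes tested in all were lower in each and 0 were higher in each, against 10.9% and 15% of all genes. Without replicate 5 of wildtype DG ECL 4 were lower in each and 0 higher, against 11.4% and 14.6% of all genes.

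**Figure D4:**
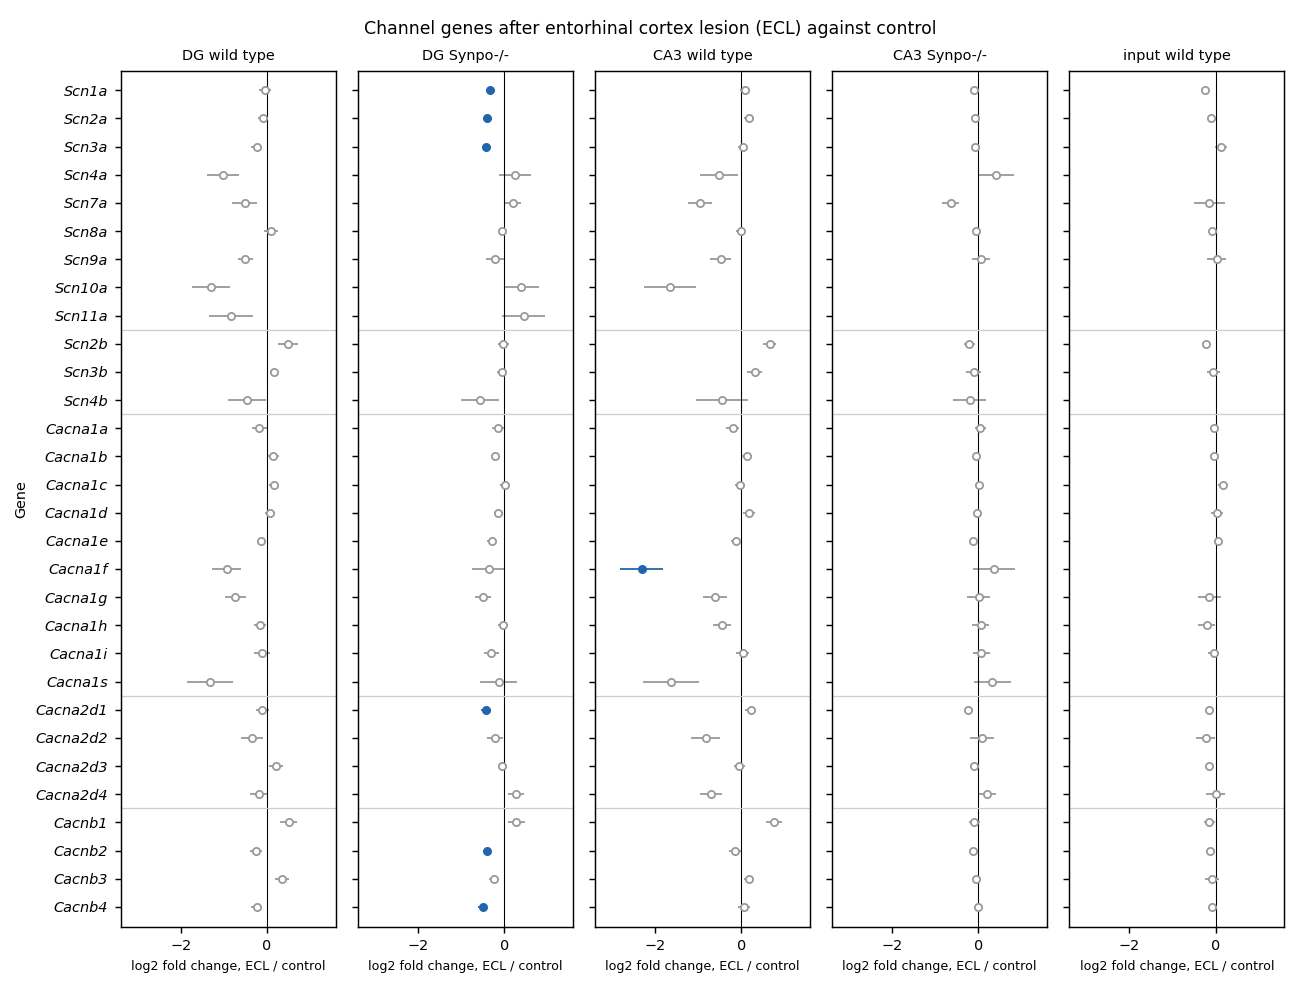
Log2 fold change (points) and SE (bars) of ECL against control for 30 channel genes where tested in DG and CA3 of both genotypes and in wildtype input, with filled points for genes that passed. The filled points are 6 genes left of 0 in the DG labelled Synpo-/- and Cacna1f in wildtype CA3.

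Whether the lesion difference itself differed between genotypes was tested as an interaction. In the DG 0 of 32 channel genes passed in edgeR or DESeq2, where 0.00381% of all genes did. There 6 had an unadjusted p under 0.05, as had 2730 of all 26245 genes tested. The smallest p was that of Cacnb3, at -0.62 on the log2 scale (Synpo-/- minus wildtype, adjusted p = 0.478). In CA3 0 of 32 passed in edgeR and 1 in DESeq2, where 0.0% of all genes passed in edgeR. There 8 had an unadjusted p under 0.05, as had 4589 of all 26821 genes tested. The smallest p of a channel gene was that of Cacnb1 (-0.89, SE 0.232, adjusted p = 0.138). The genes that fell in the DG labelled Synpo-/- are therefore not shown to respond differently from wildtype.

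Between control cultures of the 2 labels, 0 of 32 channel genes passed in the DG in edgeR or DESeq2, where 0.0166% of all genes did. There 4 had an unadjusted p under 0.05, as had 3746 of all 24143 genes tested, and Scn11a had the smallest p of the 4 (-1.19, adjusted p = 0.222). In CA3 0 of 32 passed in edgeR, where 0.00413% of all genes did, and 3 passed in DESeq2. There 9 had an unadjusted p under 0.05 in edgeR, as had 3959 of all 24203 genes tested. Scn2b ranged from 129 over 144 to 182 CPM in 6 libraries labelled Synpo-/- against 92.8 and 94.0 CPM in 2 wildtype libraries, without overlap (log2 fold change 0.60, SE 0.137, adjusted p = 0.104). It passed in DESeq2 (0.62, adjusted p = 0.00255) and without CA3 control replicate 6 labelled Synpo-/- (0.64, adjusted p = 0.0449).

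The coIP was compared with input to ask which channel transcripts were recovered with the synaptopodin antibody beyond their level in the lysate. Channel pores were enriched, in lysates labelled Synpo-/- as well (below). Enrichment over input alone therefore cannot place them in synaptopodin-containing complexes. In wildtype control lysates 17 of 26 channel genes tested were higher in the coIP and 1 was lower, where 55.0% of all genes passed, 29.6% higher and 25.5% lower. All 8 calcium channel pores tested were among the enriched genes, with log2 fold changes from 0.86 (Cacna1d and Cacna1e) to 1.44 (Cacna1a), together with 5 of 7 sodium channel alpha genes, 3 of 4 alpha2delta genes and Cacnb2. None of the 3 sodium channel beta genes tested passed in this fit, which takes no account of the shared lysates. With the lysate as a block Scn3b passed as depleted (-0.35, SE 0.0842, adjusted p = 0.00175) and Cacnb3 as enriched (0.25, SE 0.0855, adjusted p = 0.0169), against -0.37 (adjusted p = 0.057) for Scn3b without it. The median log2 fold change over the channel genes was 0.69, against 0.04 over all genes.

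Cacna2d3 had 76.0, 82.1, 75.5, 76.4 and 80.7 CPM in the wildtype control coIP against 48.2, 44.9, 45.6, 44.5 and 43.8 CPM in the input (log2 fold change 0.80, SE 0.0758, adjusted p = 1.13e-06). The T-type gene Cacna1i had 14.4, 13.5, 20.3, 17.7 and 15.4 CPM against 6.41, 6.92, 6.83, 6.26 and 6.43 CPM (1.32, SE 0.133, adjusted p = 1.75e-06). Cacna1b had 77.6, 66.8, 97.6, 78.2 and 84.6 CPM against 34.5, 42.1, 40.9, 40.0 and 42.4 CPM (1.04, SE 0.106, adjusted p = 2.11e-06). In each of these genes every coIP library exceeded every input.

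Scn8a had 238, 208, 287, 236 and 249 CPM in the coIP against 119, 131, 140, 132 and 138 CPM in the input (0.90, SE 0.0931, adjusted p = 2.2e-06). Cacna1a had 64.3, 42.0, 75.1, 46.0 and 48.1 CPM against 23.5, 21.6, 18.4, 18.4 and 20.7 CPM (1.44, SE 0.152, adjusted p = 2.68e-06). Cacnb4 went the other way, with 159, 152, 111, 123 and 132 CPM in the coIP against 254, 201, 205, 202 and 204 CPM in the input (-0.64, SE 0.108, adjusted p = 0.000176). The groups did not overlap for any of these genes, and Cacnb4 was the 1 channel gene called as depleted. Scn3b was called as depleted too in DESeq2 (-0.41, adjusted p = 0.0298) and with the length trend removed (-0.46, adjusted p = 0.0166).

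In wildtype ECL lysates 18 of 27 channel genes were enriched and 2 depleted, where 58.3% of all genes passed, 30.5% higher and 27.8% lower. Cacna2d3 had 64.5, 70.8, 76.7, 71.1 and 76.6 CPM in the coIP against 39.7, 41.1, 39.9, 42.4 and 40.7 CPM (log2 fold change 0.84, SE 0.0862, adjusted p = 4.62e-06). Cacna1a had 48.2, 78.0, 57.6, 93.1 and 46.4 CPM against 23.9, 20.0, 18.9, 20.3 and 18.0 CPM (1.70, SE 0.187, adjusted p = 7.05e-06). The L-type gene Cacna1c had 61.2, 95.1, 80.6, 110 and 69.1 CPM against 37.4, 28.8, 38.7, 37.9 and 31.2 CPM (1.28, SE 0.158, adjusted p = 1.57e-05). All 8 calcium channel pores tested passed as enriched again, Cacna1i by 1.33 (SE 0.143, adjusted p = 5.93e-06).

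Scn2a had 471, 546, 525, 569 and 471 CPM in the ECL coIP against 314, 314, 326, 315 and 273 CPM in the input (0.76, SE 0.0964, adjusted p = 1.87e-05), without overlap. The depleted genes were Cacnb4, with 145, 129, 144, 114 and 140 CPM against 201, 188, 208, 207 and 204 CPM (-0.57, SE 0.0885, adjusted p = 9.52e-05), and Scn3b. Scn3b had 95.2, 110, 109, 119 and 78.4 CPM against 125, 139, 147, 151 and 115 CPM, and overlapped (-0.38, SE 0.124, adjusted p = 0.0169).

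In the lysates labelled Synpo-/- 14 of 28 channel genes were enriched and 3 depleted, where 31.4% of all genes passed, 15% higher and 16.4% lower. Cacna1a had 52.8 and 63.8 CPM in the coIP against 19.2 and 25.6 CPM in the input (log2 fold change 1.35, SE 0.173, adjusted p = 0.000321). Cacna2d3 had 77.3 and 82.9 against 47.4 and 42.7 CPM (0.80, SE 0.138, adjusted p = 0.00133). Cacna1b had 71.9 and 83.0 against 44.2 and 44.1 CPM (0.78, SE 0.139, adjusted p = 0.0016). These are the pores and the alpha2delta subunit that also led in wildtype control lysates, so their enrichment was measured in libraries under the label in which the antibody should lack its target.

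Cacna2d2 had 8.31 and 7.98 CPM in the coIP labelled Synpo-/- against 3.09 and 4.08 CPM (1.15, SE 0.239, adjusted p = 0.00378), and Cacna1c 53.0 and 63.6 against 28.7 and 38.0 CPM (0.77, SE 0.167, adjusted p = 0.00466). Among the depleted genes, Cacnb4 had 128 and 116 against 205 and 194 CPM (-0.75, SE 0.132, adjusted p = 0.00149), Cacna2d4 1.91 and 2.47 against 4.28 and 4.70 CPM (-1.07, SE 0.282, adjusted p = 0.0132), and Scn3b 101 and 114 against 142 and 155 CPM (-0.50, SE 0.135, adjusted p = 0.0147). None of these 5 genes, chosen by their small p, overlapped between fractions, which with 2 libraries per group adds little to the test. With 2 lysates each, 11 channel genes passed without input replicate 2, where 15.6% of all genes did. Cacna1c (adjusted p = 0.056) and Scn3b (adjusted p = 0.0502) were then lost, and without input replicate 1 Cacna2d4 (adjusted p = 0.0562) and Scn3b (adjusted p = 0.115) were lost.

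Across the 3 coIP comparisons, which share no library, 14 of 26 channel genes passed as enriched in each, against 14.2% of all genes. Of the 26 genes tested in all 3, 19 had a positive sign in each and 2 (Cacnb4 and Scn3b) a negative sign in each, where 40.7% and 39.3% of all genes did.

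The channel genes are long, with a median exon length of 9.28 kb, and the coIP calls moved when the trend of counts with gene length was removed from each library. In wildtype control 14 genes then passed, 12 higher and 2 lower, where 49.4% of all genes passed, 29% higher and 20.4% lower. In wildtype ECL 15 passed, 13 higher and 2 lower, where 51.4% of all genes passed, 30.5% higher and 21% lower. In lysates labelled Synpo-/- 7 passed, 4 higher and 3 lower, where 28.1% of all genes passed, 14.6% higher and 13.5% lower. The pores that lost the call were Cacna1d, Cacna1e, Scn1a and Scn3a in wildtype control and included Cacna1e, Scn1a and Scn3a in wildtype ECL, and Cacna1a and Cacna1b were the only pores left under the Synpo-/- label. The medians over the channel genes became 0.32, 0.41 and 0.32 on the log2 scale. Cacna1a kept 0.99, 1.22 and 1.05 in the 3 comparisons, and 0.66, 0.84 and 0.88 with GC trends removed as well, each past the threshold, and with the length trend removed Cacna1c in lysates labelled Synpo-/- fell below the threshold at 0.30 (adjusted p = 0.173). Removing length and GC trends together gave 14 calls in wildtype control (47.4% of all genes), 16 in wildtype ECL (48.9% of all genes) and 9 under the Synpo-/- label, 5 higher and 4 lower (27.7% of all genes, 13.9% higher and 13.8% lower). The summed level of the 5 pan-neuronal markers was lower in the coIP, at 4456 to 5799 CPM in the wildtype control coIP and 7423 to 8934 CPM in the input, at 3810 to 5100 against 6413 to 7878 CPM in wildtype ECL, and at 4843 to 5372 against 6753 to 7335 CPM in lysates labelled Synpo-/-. By gene they were divided, with 1 enriched and 1 depleted in wildtype control (median log2 fold change -0.08), 1 and 2 in wildtype ECL (-0.01) and 0 and 1 under the Synpo-/- label (-0.07). Their part in the enrichment was not tested.

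**Figure D5:**
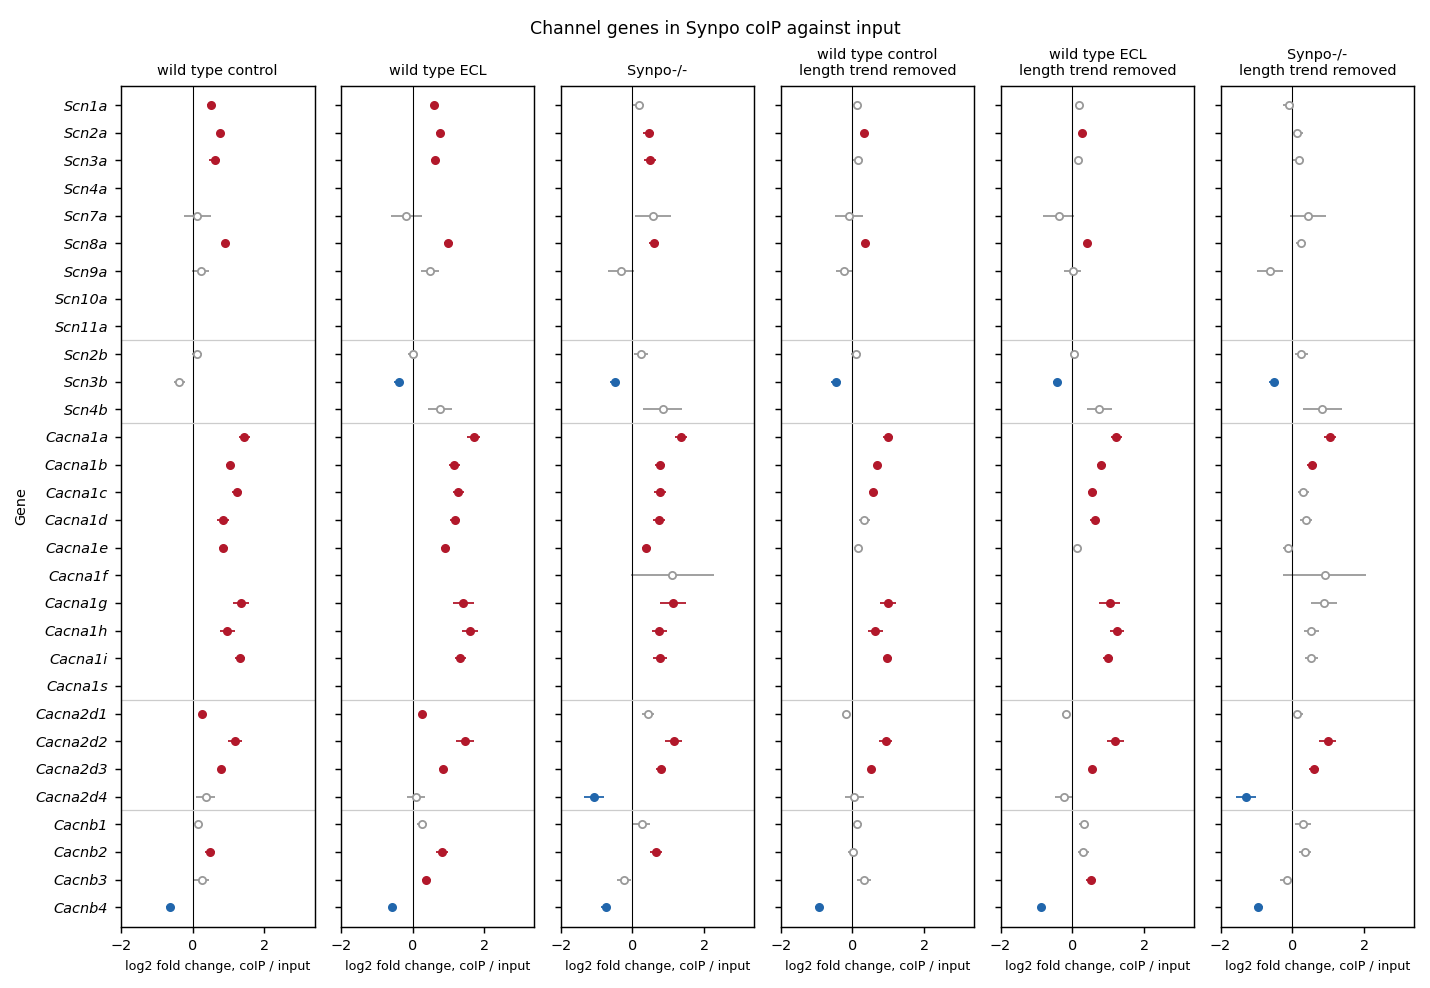
Log2 fold change (points) and SE (bars) of Synpo-coIP against input for 30 channel genes where tested, in the 3 comparisons (left panels) and with the gene length trend removed (right panels), with filled points for genes that passed (red higher in the coIP, blue lower). The calcium channel pores lie right of 0 and Cacnb4 left of 0 in the left panels, and the pores lie nearer to 0 in the right panels.

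Whether the enrichment differed between the genotype labels was tested as an interaction, in which 0 of 28 channel genes passed in edgeR or DESeq2. In edgeR 0.0% of all genes passed, and 3 channel genes had an unadjusted p under 0.05, as had 1511 of all 20621 genes tested. The smallest p was that of Cacna2d4 (-1.38 on the log2 scale, Synpo-/- minus wildtype, adjusted p = 0.543). In the study's correction for non-specific pull-down, the log2 fold change under the Synpo-/- label was subtracted from that of genes enriched in wildtype control, and a gene counted as kept where more than 1.3-fold remained. Of the 17 enriched channel genes 14 were enriched under the Synpo-/- label too, against 49.2% of all enriched genes, and 4 were kept (23.5%), where 25.2% of all enriched genes were. They included Cacna1c, Cacna1e and Cacna1i, with remainders of 0.47, 0.48 and 0.56 on the log2 scale. The number kept was 2 without wildtype control coIP replicate 3 or without coIP replicate 1 labelled Synpo-/-, and 8 without coIP replicate 2 labelled Synpo-/-.

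Channels work in complexes, and a list of 37 genes was read in the same way. It holds partners, anchors and release-site proteins (among them the Fgf11 to Fgf14 group, ankyrins, the spectrin Sptbn4, calmodulins, Rims and SNARE proteins). It also holds Nalcn, Unc79, Unc80 and Fam155a of the separate sodium leak channel complex. Snap25 of this list is also among the pan-neuronal markers above. Between regions, 1 of 36 was higher (Akap5, 0.60) and 6 were lower in wildtype control DG, including Fam155a (-0.71), Snap25 (-0.85) and Cabp1 (-1.08), where 2.63% and 2.75% of all genes did so. In controls labelled Synpo-/- 3 of 34 were higher (Akap5, Rims2 and Fgf11) and 18 lower, including Fam155a (-0.66), Rims1 (-0.70) and Stx1a (-0.95), where 13.1% of all genes were higher and 12.5% lower, with a list median of -0.35 against 0.05 over all genes. After ECL under that label 16 of 35 were lower in the DG, against 6.24% of all genes, with a list median of -0.40 against 0.03. In wildtype ECL 0 of 34 passed, against 2.05% of all genes, and without DG replicate 5 23 of 34 were lower, against 12.3% of all genes.

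After ECL against control, 6 of 34 partners fell in the DG labelled Synpo-/-, including Akap5 (-0.86), Fgf12 (-0.53) and Rims2 (-0.44), where 3.36% of all genes fell, with a list median of -0.16 against 0.01 over all genes. In wildtype DG 1 of 35 rose (Nfasc, 0.53), where 7.86% of all genes rose. Without ECL replicate 5, 2 of 35 rose (Nfasc, 0.43, and Cdk5, 0.44) and 2 fell (Fgf11, -0.43, and Akap5, -0.46), where 1998 of all 23605 genes rose and 1252 fell. In wildtype CA3 2 of 34 rose (Stx1a, 0.96, and Camk2a, 0.59), where 1.5% of all genes did. In the wildtype input 3 of 35 fell, Cabp1 (-0.79), Akap5 (-0.45) and Calm3 (-0.24), where 3.16% of all genes fell, and in CA3 labelled Synpo-/- 0 of 34 passed, where 0.077% of all genes did.

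In the coIP partners were called in both directions. Of 35 tested in wildtype control lysates 17 were enriched and 9 depleted, where 29.6% and 25.5% of all genes were, with a list median of 0.21 against 0.04 over all genes. The enriched partners included the axonal anchors Ank3 (1.05) and Ank2 (1.08) and Unc80 (0.91), a subunit of the sodium leak channel complex, and the depleted ones the calmodulin genes Calm2 (-1.54) and Calm3 (-0.81). In wildtype ECL lysates 18 of 34 were enriched, Sptbn4 by 1.5, and 9 were depleted, Fgf12 by -1.37 and Snap25 by -1.20, where 30.5% of all genes were enriched and 27.8% depleted. In lysates labelled Synpo-/- 9 of 35 were enriched, including Ank2 (0.86), Ank3 (0.75) and Sptbn4 (0.97), and 10 depleted, including Calm2 (-0.94), Fgf12 (-0.95) and Stx1a (-1.01), where 15% and 16.4% of all genes were. The list median was 0.32 in wildtype ECL and 0.02 under the Synpo-/- label, against 0.02 over all genes in each. Partner values were not read with the length trend removed, and the part of gene length in these calls was not tested.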

How the data were processed

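Counts from 39 regional and 24 Synpo-coIP libraries were used. Adapters were removed by the authors with cutadapt 3.5, the reads were aligned to mm10 with STAR 2.7.8a, and the authors counted them per gene with featureCounts 2.0.1 (versions from the submitters' processing notes) over exons of the deposited GENCODE annotation, without strand. The deposited values are these raw counts for 55291 symbols, and no column was left unused. Reads of near-identical or overlapping genes cannot be told apart. No 2 libraries of a group were alike within sampling noise.

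Each comparison was fitted with edgeR 4.0.16 in R 4.3.3 (TMM, filterByExpr, quasi-likelihood test) on its own groups, with Benjamini-Hochberg adjustment over all genes tested, and a gene was called at an adjusted p under 0.05. Values with ± are means and SD over biological replicates as labelled. Group levels were scaled by TMM within each experiment. Libraries carry no molecular identifiers, so total counts set a lower limit on error, and the error given is that between replicates. The members, gene lists and tests were chosen with earlier results of these data known. Per-sample values are given, in each comparison, for up to 5 called genes per direction with the smallest p, or for the gene with the smallest p where none was called. Groups without overlap in these genes follow in part from that choice and are not further support. The share of all genes without overlap was not computed. Scn8a in wildtype ECL was added after its values were seen. Single values of some genes are not reported here.

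Alternatives were DESeq2 1.42.0, RLE factors for scaling, omission of the filter on low counts, a mean normalized count over 300, removal of trends with gene length or with length and GC (lowess, span 0.3, genes with a mean count over 50), all 8 regional groups in one fit, the replicate number as a block, and leaving out each library. CoIP and input of 1 number were taken as 1 lysate. The titles of the Synpo-/- inputs hold 2 numbers that conflict, and that of the lysate name was used, so their pairing is in doubt. Their deviations from the group means correlated with r from 0.189 to 0.442 in wildtype control and from 0.105 to 0.381 in wildtype ECL, and with 0.0456 under the Synpo-/- label. The edgeR, DESeq2, length-trend and block fits were run on simulated counts for some of the comparisons, and the other alternatives were not.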

Additional observations from a re-analysis of the deposited data

Results flagged for a closer look

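Of 89 pairs of a named channel gene and a group of 4 to 10 libraries, 10 held a library whose gap to its nearest neighbour was large against the range of the group by Dixon's test at the 95% level, and chance alone marks about 5% of such groups. Replicate 5 of wildtype DG ECL accounted for 4 of the 10, with 279 CPM of Scn1a, 194 CPM of Scn2b, 158 CPM of Scn8a and 84.1 CPM of Cacna2d3, each above the other 6 libraries of its group. This is the library with low Prox1 and high CA3 pyramidal cell markers, and the regional results are given with and without it above.

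The other 6 were single values in 6 different libraries. Scn3a stood at 135 CPM in control DG replicate 2 labelled Synpo-/- and at 82.0 CPM in CA3 ECL replicate 4 of the same label, both above the rest of their groups. Cacnb4 stood at 176 CPM in control CA3 replicate 1 labelled Synpo-/- and at 254 CPM in wildtype control input replicate 1, and Scn2b at 182 CPM in control CA3 replicate 2 labelled Synpo-/-, again the highest of each group. Scn2a stood at 273 CPM in wildtype ECL input replicate 5, below the other 4 libraries.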

How the results depend on the processing

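Of 917 pairs of a named channel gene and an alternative setting, 850 kept direction and side of the threshold, 60 lost the call, 7 gained it and 0 changed sign. Of 118 counts of called channel genes under alternatives other than leaving out a library, 87 stayed within 1.5 times. The causes of the changes below were not tested.

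With the replicate block, 0 channel genes passed between regions in wildtype control, 17 in wildtype ECL, and 1 and 2 after lesion in wildtype and Synpo-/- DG, and 5 between genotypes in CA3. A library whose number occurs in a single group does not enter such a contrast, among them replicate 5 of wildtype DG ECL between regions. Regional numbers did not pair the samples (correlations from -0.224 to 0.54), while in the coIP, paired by lysate in wildtype, the block gave 20, 19 and, with numbers in doubt, 18 calls. Between regions in wildtype ECL there were 3 calls with DESeq2 and 3 without a filter on low counts, 2 with the length trend removed, 11 with all 8 groups in one fit, and 0 with RLE factors or a mean count over 300. After lesion in wildtype DG DESeq2 gave 3 and the fit of all groups 1. In the DG labelled Synpo-/- no filter gave 2 and the fit of all groups 3. In wildtype CA3 DESeq2 gave 3, no filter 4, and RLE factors, the length trend, a mean count over 300 and the fit of all groups 0. DESeq2 gave 1 and no filter 1 for the CA3 interaction, and 3 and 4 between genotypes in CA3. In lysates labelled Synpo-/- the length trend left 7 and length with GC 9. The pull-down correction kept 9 genes on lesioned wildtype samples, 15 at any positive remainder, 0 at a fold over 1.5 and 1 with the length trend removed. Removing the length trend moved the median of all genes by -0.14 and -0.13 in the wildtype lesion comparisons (DG, CA3), and by 0.15 and 0.17 in the interactions. DESeq2 moved it by -0.13 and 0.11 in the wildtype lesion comparisons, by 0.22 in the DG interaction and by 0.09 between genotypes in CA3.

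Leaving out 1 library gave 1 to 5 calls between regions in wildtype control, 0 to 17 in wildtype ECL, 16 to 17 in control and 11 to 18 in ECL labelled Synpo-/-. After lesion it gave 0 to 3 in wildtype DG, 2 to 6 in DG labelled Synpo-/- and 0 to 0 in wildtype CA3, in CA3 labelled Synpo-/-, in input and in all 3 interactions. Between genotypes it gave 0 to 0 (DG) and 0 to 1 (CA3). In the coIP it gave 17 to 19, 17 to 20 and 11 to 18 calls, and 2 to 8 genes kept after the correction. Depth limits Scn4a, Scn10a, Scn11a, Cacna1f and Cacna1s, and groups of 2 limit wildtype control CA3 and the lysates labelled Synpo-/-.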
